A study of Mus musculus with 4 samples.

Results

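The acrosome genes followed here were Acr, Acrbp, Acrv1, Spaca1, Spaca3, Spaca7, Spam1, Zpbp, Zpbp2 and Izumo1, taken by name from the deposited table of testis single-cell expression. All 10 were found among the 18419 genes of the table, and all 10 are annotated as protein-coding.

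The study asked whether alginate oligosaccharides (AOS), fragments of the seaweed polysaccharide alginate, help germ cells recover from busulfan, an alkylating drug that damages them. Male ICR mice, an outbred strain, were 3 weeks old when some received a single busulfan injection, and from the following day the animals were given water or AOS by gavage each day. The groups were A0 (water alone), A10 (AOS at 10 mg/kg body weight, no busulfan), B0 (busulfan, then water) and BA10 (busulfan, then AOS at 10 mg/kg body weight). The study text gives the length of dosing both as 2 and as 5 weeks. Each group was 1 droplet library of cells pooled from 6 mice, made from tubule pieces that had been washed to remove spermatozoa, so animals could not be told apart, no spread between animals could be had and no p-value is given. Fold changes below compare libraries, not replicated conditions.

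The acrosome is a large secretory vesicle that caps the nucleus of a sperm cell. It is built from the Golgi apparatus as round spermatids (STs), the haploid cells left by meiosis, take shape, and some of its proteins are already made in the spermatocytes (SPCs) before the meiotic divisions. On meeting the coat of the egg the vesicle fuses with the sperm membrane, releasing enzymes and exposing proteins that the sperm needs for binding and fusion.

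The table held 27060 cells, between 3778 in BA10 and 9682 in A10. Counts of unique molecular identifiers (UMIs, each standing for 1 captured RNA molecule) were recovered from the deposited values, and 100% came out whole within 0.001. The libraries differed widely in depth, with a median UMI count per cell of 12685 (A0), 10948 (A10), 4214 (B0) and 17989 (BA10). No BA10 cell had fewer than 9013 UMIs, a count reached by only 448 of the 4659 B0 cells. Results that set B0 against another library are therefore given for all cells and again for cells with at least 9013 UMIs. Of 26683 distinct cell barcodes, 374 occurred in more than 1 library. Levels are UMIs of a gene summed over a library, class or cluster per 1000000 UMIs there (CPM), with 95% exact Poisson intervals, and shares of cells have exact binomial (Clopper-Pearson) intervals. These intervals, and those on fold changes, cover counting error only. The kit tags the 3′ end of each RNA, so CPM values carry no division by gene length. A library's level mixes how many cells of each type it held with how much RNA of the gene each cell had.

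Within the control library the 10 genes parted into 4 that were already abundant in SPC-like cells and 6 that became abundant later. The earlier genes were Acr, Acrbp, Zpbp and Zpbp2, and they are called the early set. The later ones were Acrv1, Spaca1, Spaca3, Spaca7, Spam1 and Izumo1, the late set. This division was made after the values were seen and serves as a description. Cells were grouped into 32 clusters without using the 10 genes, and clusters were named by fixed markers of testis cell types, for instance SPC-like or ST-like. In A0 the early genes summed to 2573 CPM over 4082 SPC-like cells and to 1368 CPM over 4710 ST-like cells, whereas the late genes summed to 743 and 2095 CPM.

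Acr (chr15:89568326-89574585, plus strand, GRCm38 with GENCODE M21 annotation, as for all genes here) encodes acrosin, the main serine protease of the acrosome. Its level ran from 119 to 267 CPM over the 7 SPC-like clusters of A0 and from 27.4 to 296 CPM over the 11 ST-like ones. Acrbp (chr6:125049689-125063267, plus strand), whose product binds the acrosin precursor, was highest in SPC-like cluster 4 at 828 CPM. Zpbp (chr11:11279626-11462408, minus strand) and Zpbp2 (chr11:98551097-98558665, plus strand) encode related proteins of the acrosomal matrix that were named for binding to the egg coat. Zpbp reached 785 CPM in SPC-like cluster 3 and 761 CPM in ST-like cluster 2. Zpbp2 had the highest cluster level of all 10 genes, 1368 CPM in SPC-like cluster 4, and fell to 50.3 CPM in ST-like cluster 13. The early genes were thus within 2.25-fold to 4.57-fold over the SPC-like clusters but spanned 8.26-fold to 16.01-fold over the ST-like ones.

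The late genes ranged more widely over the SPC-like clusters, by 26.3-fold to 77.4-fold, with sums from 69.4 CPM in cluster 10 to 2322 CPM in cluster 3, where Spaca1 was at 662 CPM. Cluster 3 was the highest of these for each late gene, so the ranges rest on its class. Its scores were 0.246 for SPC-like and 0.167 for ST-like, so that class is uncertain. In cluster 10, led by the spermatocyte gene Pou5f2 and with a median of 33773 UMIs per A0 cell, the 6 late genes summed to 69.4 CPM against 2318 CPM for the early 4. Spaca1 (chr4:34024874-34050191, minus strand), a membrane protein needed to shape the acrosome, was at 14.1 CPM in cluster 10 and at 1038 CPM in ST-like cluster 9. Spaca3 (chr11:80858365-80867814, plus strand), a lysozyme-like acrosomal protein, was at 23.6 and 988 CPM in the same clusters. Spaca7 and Acrv1 had the same low and high clusters. Spaca7 (chr8:12573029-12600744, plus strand), an acrosomal protein released when the vesicle opens, went from 16.8 to 653 CPM. Acrv1 (chr9:36693220-36698843, plus strand), also known as SP-10, an acrosomal matrix protein, went from 8.85 to 398 CPM.

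Spam1 and Izumo1 were the least abundant of the 10 and did not share a peak. Spam1 (chr6:24791188-24801048, plus strand), the PH-20 hyaluronidase that loosens the cell layer around the egg, was highest in ST-like cluster 2 at 266 CPM and was at 239 CPM in cluster 9. In ST-like cluster 17 it was down to 23.0 CPM. Izumo1 (chr7:45621811-45628823, plus strand), the sperm protein that binds its receptor on the egg before fusion, was highest in that same cluster 17 at 303 CPM, with 286 CPM in cluster 9. Of the late genes, Spam1 alone had left its high level in cluster 17, where Spaca1 stood at 925 CPM, Spaca3 at 931 CPM, Spaca7 at 583 CPM and Acrv1 at 364 CPM.

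Cells of the 3 germ-like classes were placed on a diffusion pseudotime, an order built from similarity of expression that starts among the spermatogonium-like (SPG-like) cells, and cut into 20 bins of equal cell number over A0 and A10. SPG-like cells numbered 237 in B0, 12 in BA10, 1 in A10 and 0 in A0. All 453 A0 cells of bin 1 were SPC-like, so the A0 profiles do not begin with SPG-like cells. In A0, Acr, Acrbp, Zpbp and Zpbp2 each first reached 50% of its own peak in bin 2. Spaca1, Spaca7 and Spam1 did so in bin 5, Acrv1 and Spaca3 in bin 6, and Izumo1 in bin 7. Zpbp2 and Acrbp peaked in bin 4, Zpbp in bin 8 and Acr in bin 10, while the late genes peaked between bin 13 for Spam1 and bin 15 for Spaca3 and Izumo1. The ends also differed. In the last bin Spaca7 was still at 66.4% of its peak, Spam1 was at 6.94% and Zpbp2 at 5.40%. Bins 3 to 17 of A0 held both SPC-like and ST-like cells, so the order is coarse there.

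**Figure D1:**
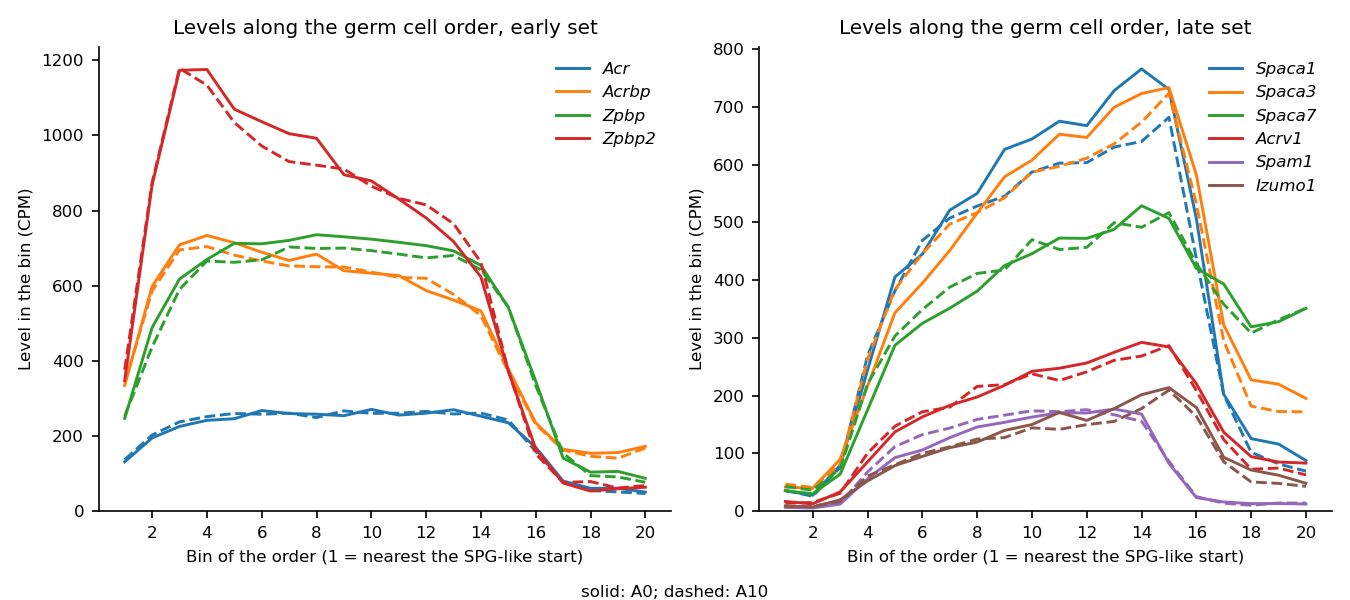
Level of each acrosome gene (CPM, vertical axis) in 20 bins of the germ cell order (horizontal axis), with A0 solid and A10 dashed, early genes on the left and late genes on the right. Early genes first reached 50% of their peak in bin 2 in A0 and late genes in bins 5 to 7, and Spaca7 alone was above 50% of its peak in bin 20.

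The order did not serve for the busulfan libraries. BA10 and B0 cells filled only bins 1 to 3 with 20 cells or more, and in bin 3 the 70 B0 cells, of which 68 were ST-like, had Spaca1 at 658 CPM where A0 cells had 79.1 CPM. Levels in B0 and BA10 are therefore given by library and by cluster.

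Over the 19 clusters with at least 50 cells of A0 and A10 together, pairs of early genes had Pearson correlations of 0.84 to 0.99 in log2 level, and pairs of late genes 0.74 to 1.00. Pairs with a gene from each set had correlations from -0.23 to 0.59. The clusters come from the same 2 libraries and the sets were chosen from levels in these data. Higher correlations within a set follow in part from that choice, so these are descriptions only. Among 8981 other genes the closest to the mean of the 10 was Tekt2 (r = 0.99), which encodes a tektin of the sperm tail, followed by Fam103a1, 1700028P14Rik, Tex21 and Mmel1. For single members the closest were Gm128 for Acr, Sccpdh for Acrbp, Tmem237 for Zpbp and Galnt3 for Zpbp2 in the early set. In the late set they were Efcab9 for both Acrv1 and Spaca3, 1700016G14Rik for Spaca1, 4930578I06Rik for Spaca7, Il31 for Spam1 and BC051628 for Izumo1. All 10 of these had r of at least 0.99 except Il31, at 0.988.

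The 250 bases before the RefSeq start sites (GRCm38.p6) of the early and the late genes were searched for 4 motifs of factors known in male germ cells. RefSeq promoter entries matched 9 of the 10 genes by symbol, with the first taken where Spaca1 and Spaca3 had more, and Acr had none. The motifs, on both strands, were the cAMP response element TGACGTCA, its half-site TGACG (which the full element contains), the RFX half-site GTTGCC and the MYB core CAACTG. The windows of Zpbp2 from the early set and of Izumo1, Spaca3 and Spam1 from the late set are shown, with any match in capitals, because Zpbp2 was among the first to peak, Spam1 peaked first of the late genes and Izumo1 and Spaca3 peaked last.
Zpbp2: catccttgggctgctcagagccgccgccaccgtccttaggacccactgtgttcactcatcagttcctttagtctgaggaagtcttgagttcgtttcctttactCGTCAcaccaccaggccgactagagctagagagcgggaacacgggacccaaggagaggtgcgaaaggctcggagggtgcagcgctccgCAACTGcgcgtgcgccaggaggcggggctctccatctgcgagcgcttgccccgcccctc
Izumo1: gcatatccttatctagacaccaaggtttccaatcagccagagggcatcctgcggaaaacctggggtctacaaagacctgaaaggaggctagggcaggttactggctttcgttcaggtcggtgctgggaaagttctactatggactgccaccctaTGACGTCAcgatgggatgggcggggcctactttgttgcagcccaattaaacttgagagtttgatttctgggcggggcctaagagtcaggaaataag
Spaca3: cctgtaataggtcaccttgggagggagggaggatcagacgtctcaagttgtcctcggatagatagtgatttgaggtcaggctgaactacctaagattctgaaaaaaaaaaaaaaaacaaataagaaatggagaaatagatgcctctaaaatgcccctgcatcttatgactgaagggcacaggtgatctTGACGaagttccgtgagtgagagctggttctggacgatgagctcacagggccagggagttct
Spam1: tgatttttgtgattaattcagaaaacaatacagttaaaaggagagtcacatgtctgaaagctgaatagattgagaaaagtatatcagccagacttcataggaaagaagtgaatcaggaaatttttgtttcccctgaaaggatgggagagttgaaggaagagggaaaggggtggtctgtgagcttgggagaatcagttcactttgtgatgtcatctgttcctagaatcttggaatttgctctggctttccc
The Zpbp2 window is chr11:98550847-98551096 on the plus strand and held the MYB core and, on the opposite strand, the half-site TGACG. The Izumo1 window, chr7:45621561-45621810 on the plus strand, held the full response element 96 bases before the start. The Spaca3 window, chr11:80858113-80858362 on the plus strand, held 1 half-site, and that of Spam1, chr6:24790938-24791187 on the plus strand, held none of the 4 motifs. The half-site was found for 5 of the 9 genes, 2 of 3 early and 3 of 6 late, and in 17.8% of all 32851 promoter windows of this length. The full element occurred in 1.55% of windows, the MYB core in 11.1% and the RFX half-site, found for Acrbp alone, in 10.4%. The letters did not separate the early from the late genes, and a match is not evidence of binding.

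In the libraries as a whole the early genes were highest in BA10 and the late genes in the 2 libraries without busulfan, with B0 lowest for all 10 over all cells. Among cells with at least 9013 UMIs B0 was above A0 for Acr, Acrbp and Zpbp2 and above BA10 for the 6 late genes. The summed level of the 10 was 3381 CPM in A0, 3267 CPM in A10, 990 CPM in B0 and 2894 CPM in BA10. BA10 came close to A0 in this sum with a different make-up. The early genes gave 57.4% (95% interval 57.3 to 57.6) of the members' UMIs in A0 and 59.5% in A10, but 74.0% (73.5 to 74.6) in B0 and 86.8% (86.7 to 86.9) in BA10.

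**Figure D2:**
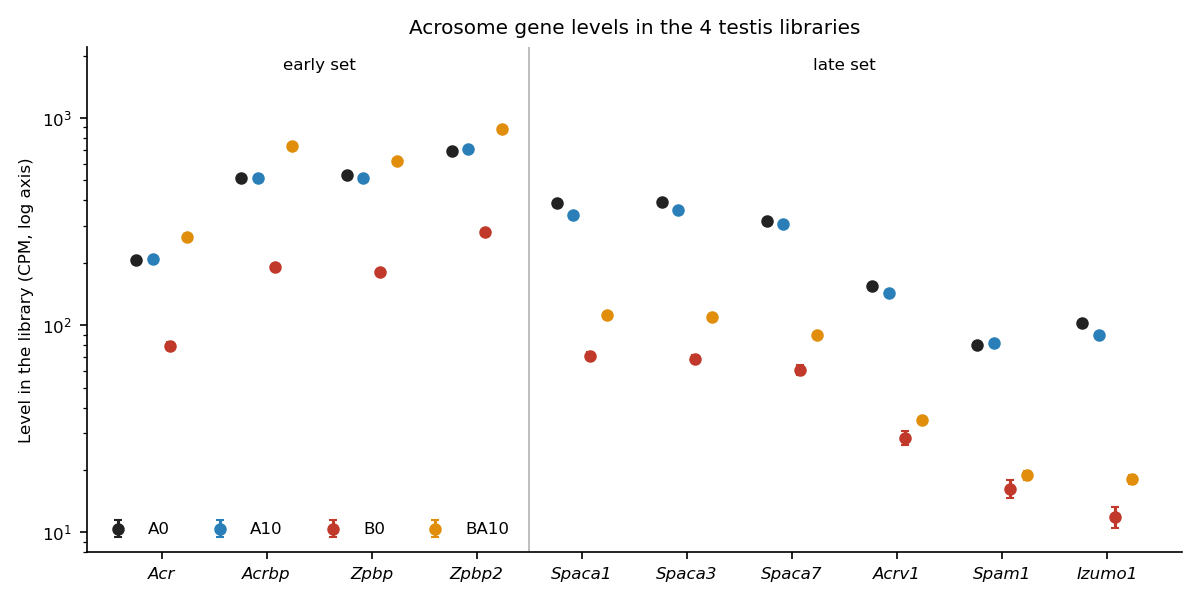
Level of each acrosome gene in the 4 libraries (CPM, logarithmic vertical axis), with 95% Poisson intervals, early set left of the grey line and late set right of it. For the early genes BA10 is highest and B0 lowest, and for the late genes both B0 and BA10 lie well below A0 and A10.

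Zpbp2, the most abundant member, was at 691 CPM in A0, 710 CPM in A10, 281 CPM in B0 and 887 CPM in BA10. It was seen in 87.0% of A0 cells, 87.1% of A10 cells, 17.9% of B0 cells and 98.1% of BA10 cells. With cells thinned to an equal UMI count, which left out the shallower B0 cells, these shares were 76.6%, 78.3%, 45.7% and 93.3%. Acrbp followed the same order at 514, 516, 192 and 735 CPM, as did Acr at 205, 208, 79.5 and 267 CPM. Zpbp stood at 531, 511, 180 and 623 CPM. For Acr and Acrbp, and for Spam1 in the late set, the intervals of A0 and A10 overlapped, and all other neighbours in the order of the libraries were apart beyond counting error. Such intervals are narrow at library totals of 25323535 UMIs (B0) to 150812974 UMIs (A0), and no share of all genes with intervals apart is given.

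Spaca1 was at 390 CPM in A0, 339 CPM in A10, 71.1 CPM in B0 and 112 CPM in BA10. Spaca3 was at 394, 361, 68.7 and 109 CPM, and Spaca7 at 318, 308, 60.8 and 89.5 CPM. Both busulfan libraries were low for each of these genes. BA10 was above B0 over all cells and below it among cells with at least 9013 UMIs, where B0 had Spaca1 at 209 CPM, Spaca3 at 206 CPM and Spaca7 at 182 CPM. Acrv1 was at 155, 142, 28.6 and 34.8 CPM. Spam1 was at 80.0, 82.2, 16.2 and 18.8 CPM. Izumo1 was at 103, 90.1, 11.8 and 18.1 CPM and had the lowest level of any member in B0. In BA10 its interval (17.2 to 19.0) overlapped that of Spam1 (18.0 to 19.7). Izumo1 was seen in 4.12% of B0 cells and 21.6% of BA10 cells against 53.1% in A0, and Spam1 in 18.6% of BA10 cells. These shares follow depth as well as level. With cells thinned to an equal UMI count, Izumo1 was seen in 7.30% of B0, 9.29% of BA10 and 32.1% of A0 cells. Spam1 was then seen in 7.51% of B0 and 8.81% of BA10 cells. Thinning left out the shallower B0 cells, so it changed the cell make-up of B0 too.

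The first comparison asked what AOS did without busulfan. The 10 genes were close to equal in A10 and A0. Log2 ratios (with 1 CPM added) ran from -0.20 for Spaca1 to 0.04 for Zpbp2, with a median of -0.05 beside -0.03 for all 9024 genes that 5% or more of the cells in A0 or A10 contained. None of the 10 passed 2-fold, a size that 0.111% of all genes reached in either direction. Spaca1 was 1.15-fold lower (1.14 to 1.17) and Izumo1 1.14-fold lower (1.11 to 1.17) in A10, beyond counting error. With 1 library a group, such small differences cannot be told apart from differences between libraries.

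The same was seen within clusters. In each of 19 clusters with at least 50 cells of both A0 and A10, the median log2 ratio of the 10 genes lay between -0.31 and 0.19, and 4 of 190 gene and cluster pairs passed 2-fold. All 4 were late genes lower in A10 in SPC-like cluster 26, which had 100 A10 and 106 A0 cells and where 5.6% of genes were lower past 2-fold. Spaca3 there was at 60.8 CPM in A10 and 133 CPM in A0, and Acrv1 at 15.3 and 44.0 CPM. That cluster also held ST genes, with Prm1, a protamine that packs DNA in late STs, at 15797 CPM in A0. The part of other cells' RNA in these 4 values was not tested.

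The second comparison was of busulfan alone with control. Over all cells the 10 genes were lower in B0, by 2.46-fold for Zpbp2 to 2.95-fold for Zpbp in the early set and by 4.94-fold for Spam1 to 8.69-fold (7.75 to 9.78) for Izumo1 in the late set. All 10 passed 2-fold, beside 23.3% of the 11154 genes of the background (those that 5% or more of the cells in B0 or A0 contained). The median was -2.30 on the log2 scale against 0.32 for all genes. The cell make-up moved with this result, since 2939 of the 4659 B0 cells were Leydig-like (the hormone-making cells between the tubules), while 212 were SPC-like and 97 ST-like, against 5, 4082 and 4710 in A0. In SPC-like cells 9 of the 10 genes were lower past 2-fold in B0, beside 23.1% of genes, but 198 of the 212 B0 cells of this class were in cluster 16 and those of A0 mostly in clusters 1, 3, 4 and 10. In ST-like cells the median was 0.36, below the 0.51 of all genes there, with 9 of the 10 genes above 0 and none lower past 2-fold, beside 10.5% of genes. Of those 97 B0 cells 96 were in cluster 24, whereas A0 had 55 of its 4710 there.

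Among cells with at least 9013 UMIs the ratios of B0 to A0 were smaller. This limit changed the cell make-up of B0 as well as its depth, since of the 448 cells kept 21 were Leydig-like, 52.9% were in cluster 12 and 19.0% in cluster 24, against 8.46% and 2.06% of all B0 cells. Log2 ratios of the early set were then -0.07 to 0.20. Those of the late set were -0.65 for Spam1 to -1.56 for Izumo1, and only Izumo1 passed 2-fold, beside 10.6% of genes lower past this size. In these cells Zpbp2 was at 804 CPM in B0 and 698 CPM in A0, and Spaca1 at 209 and 399 CPM.

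Members were not absent from the other cell classes of B0. Leydig-like B0 cells had 96.2 CPM of the 10 genes together, and Acrbp had a UMI in 6.16% of them at a median of 4051 UMIs per cell. This class joined 2910 cells of cluster 0, at 58.5 CPM, to 29 cells of cluster 30, at 1765 CPM. Cluster 30 was Leydig-like by a narrow margin (score 0.319, against 0.226 for SPC-like), with none of the Leydig markers among its leading genes, and held 495 of the 1220 member UMIs of the class. The early genes made up 71.1% (68.4 to 73.6) of the members' UMIs in Leydig-like cells, with 68.6% in cluster 0 alone, beside 74.0% in the whole library and 93.6% (92.3 to 94.8) in SPC-like B0 cells. Sertoli-like cells, the supporting cells of the tubule, had 123 CPM in 197 cells. Levels were higher in the small macrophage-like (97 cells, 1006 CPM) and endothelial-like (68 cells, 983 CPM) classes of B0. In BA10 the 126 Leydig-like cells had 1576 CPM, with 289 CPM in the 45 cells of cluster 0 and 1904 CPM in the 81 of cluster 30, and the 52 macrophage-like cells 2787 CPM, beside 2894 CPM in the whole library. The part of doublets and of free RNA in these values was not tested.

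**Figure D3:**
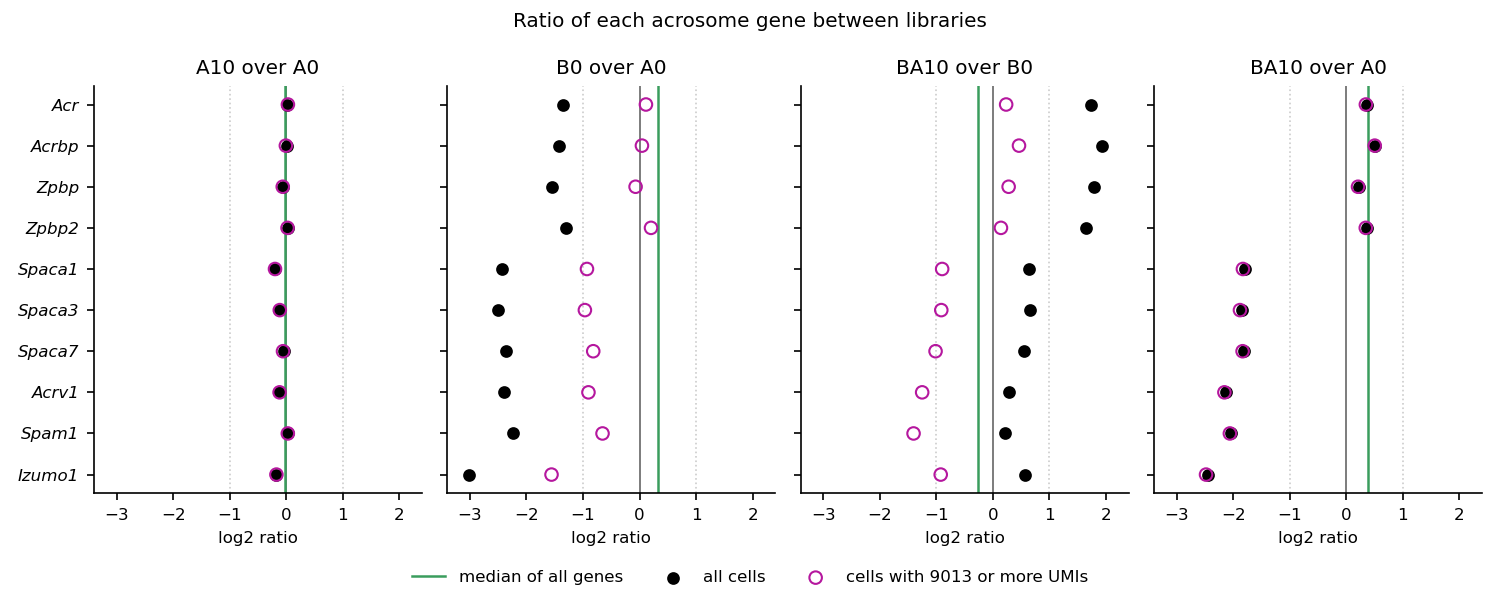
Log2 ratio of each acrosome gene in the 4 comparisons (horizontal axes), for all cells (filled) and for cells with 9013 or more UMIs (open), with the median of all genes in green and 2-fold dotted. The late genes of BA10 over B0 lie right of 0 for all cells and left of it for the deeper cells, whereas BA10 over A0 is nearly the same in both.

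The late genes of B0 came from few cells. A single cluster, 24, held 96 B0 cells, 2.06% of that library, and 49.0% of its late UMIs but 14.6% of its early UMIs. It was ST-like by a narrow margin (score 0.211, against 0.201 for SPC-like), and also held 55 A0, 59 A10 and 21 BA10 cells. Within it none of the acrosome genes differed past 2-fold between B0 and A0, while Acrbp, Zpbp2 and Izumo1 were lower in B0 with intervals that did not overlap. No share of all genes with intervals apart is given here, and these intervals cover counting error only. Spaca1 was at 621 CPM in B0 and 697 CPM in A0, Spaca3 at 666 and 659 CPM, Acrbp at 533 (495 to 574) and 716 (655 to 782) CPM, and Zpbp2 at 602 (561 to 645) and 806 (740 to 875) CPM. Log2 ratios ran from -0.72 for Izumo1 to 0.13 for Spaca7, and none of the 10 passed 2-fold, a size at which 9.19% of 10079 genes were lower and 16.4% higher.

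The genes listed as protamines and transition proteins differed more there, with 4 of 5 lower and 1 higher past 2-fold. The 4 lower ones, Prm1, Prm2, Tnp1 and Tnp2, encode proteins that replace histones in late STs. Prm1 was at 3640 CPM in the A0 cells of cluster 24 and 92.8 CPM in the B0 cells, and Prm2 at 4407 and 79.4 CPM. Prm3, whose gene lies beside theirs, was at 723 and 1562 CPM instead. The A0 library held Prm1 in every cluster, down to 946 CPM in SPC-like cluster 10, and the part of RNA from other cells in the A0 value was not tested. The sperm tail genes in cluster 24, such as Akap4 and Odf2, had a median log2 ratio of -0.33 between B0 and A0, with none past 2-fold.

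The largest source of early UMIs in B0 was cluster 12, with 394 cells and 62.8% of them, together with 35.1% of the late UMIs. Its best score was SPC-like, but its leading genes were the haemoglobin genes Hba-a1 and Hbb-b1 and Sertoli markers such as Cst9 and Rhox8, so it was left unnamed. B0 cells there had Zpbp2 at 1035 CPM, Acrbp at 632 CPM and Spaca1 at 144 CPM. Clusters 12 and 24 together thus held most of the acrosome transcripts of the busulfan library.

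The third comparison asked what AOS did after busulfan. Over all cells the early genes were 3.16-fold (Zpbp2) to 3.83-fold (Acrbp, 3.72 to 3.95) higher in BA10 than in B0. The late genes were 1.16-fold (Spam1, 1.04 to 1.30) to 1.59-fold (Spaca3) higher. The 4 early genes passed 2-fold, beside 17.8% of 11147 genes higher past this size, and the median of the 10 was 0.65 on the log2 scale against -0.26 for all genes. With levels taken as a mean over cells all 10 were higher past 2-fold, beside 28.9% of genes.

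For the late genes this direction turned at the UMI limit, which kept every BA10 cell and changed the cell make-up of B0 as well as its depth. Among cells with at least 9013 UMIs all 6 were lower in BA10, with log2 ratios from -0.90 for Spaca1 to -1.40 for Spam1, and Acrv1, Spaca7 and Spam1 passed 2-fold, beside 16.5% of genes lower past this size. The early genes stayed higher by 0.14 to 0.46, and none passed 2-fold, beside 0.995% of genes. Cluster 24 held 49.0% of the late UMIs of B0 and 2.36% of those of BA10. In SPC-like cells all 10 were higher past 2-fold in BA10, beside 18.5% of genes. The B0 cells there were almost all in cluster 16, and those of BA10 were in clusters 6 (1394 cells), 15 (675), 16 (419) and 20 (381). In ST-like cells the median was -0.40, near the -0.35 of all genes there, with none of the 10 higher and 2 lower past 2-fold, beside 11.8% and 21.9% of genes.

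The busulfan libraries shared 4 clusters with at least 50 cells of each, and these did not give 1 answer. In cluster 12, with 413 BA10 and 394 B0 cells, log2 ratios ran from -0.36 for Acrv1 to 0.48 for Acrbp, and none of the 10 passed 2-fold, as 0.541% of 9605 genes did upward and 6.56% downward. In SPC-like cluster 16, with 419 BA10 and 198 B0 cells, the median was 0.81 and 4 of the 10 were higher past 2-fold, beside 5.1% of genes. They were Acrbp, at 334 CPM in BA10 and 163 CPM in B0, Zpbp, at 238 and 115 CPM, and the late genes Spaca3, at 9.88 and 3.33 CPM, and Spaca7, at 8.34 and 2.66 CPM. The last 2 rest on 5 and 4 UMIs in B0, and all 6 late genes were at 20.6 CPM or less in both libraries. The median UMI count per cell there was 18031 in BA10 and 4973 in B0, and the part of depth in that difference was not tested. In unnamed cluster 27, with 122 and 58 cells, log2 ratios ran from -2.33 for Spam1 to 0.83 for Acrbp, with a median of -0.91 and 4 of the 10 lower past 2-fold, beside 31.3% of genes. In macrophage-like cluster 29, with 52 and 97 cells, they ran from -2.64 for Spam1 to 2.13 for Acr, with a median of 0.73, 5 higher and 1 lower past 2-fold, beside 16.3% and 39% of genes.

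The fourth comparison, of BA10 with A0, split the 10 genes most sharply. The early genes were 1.17-fold (Zpbp, 1.16 to 1.19) to 1.43-fold (Acrbp, 1.42 to 1.44) higher in BA10. The late genes were lower, by 3.49-fold for Spaca1 (3.42 to 3.57), 4.44-fold for Acrv1 and 5.68-fold for Izumo1 (5.40 to 5.98). The 6 late genes passed 2-fold, beside 18.2% of 10534 genes lower past this size, and none of the 10 was higher past 2-fold, beside 16.7% of genes. The median of all genes was 0.38, so the early set, at 0.37, lay at the level of the table as a whole. Cells with at least 9013 UMIs gave nearly the same values, with late genes from -1.83 to -2.48 on the log2 scale. The B0, A10 and BA10 ratios to A0 share the A0 library and are not independent of each other.

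Cell make-up moved with these values too. BA10 had 2877 SPC-like and 53 ST-like cells where A0 had 4082 and 4710. The SPC-like cells of BA10 include the 381 of cluster 20 and those of A0 the 813 of cluster 3, and the class of both clusters is uncertain. Here ST-like cells were 53 of the 3778 BA10 cells and 4710 of the 8941 A0 cells. The study's own clusters gave STs a much larger share of BA10 and a smaller share of A0. The SPC-like and ST-like values of BA10 given here therefore do not describe the study's SPCs and STs. The SPC-like class was held by different clusters in the 2 libraries, namely 6, 15, 16 and 20 in BA10 and mostly 1, 3, 4 and 10 in A0. In SPC-like cells the early genes were at 2516 CPM in BA10 and 2573 CPM in A0, and the late genes at 366 and 743 CPM. Over single SPC-like clusters the late sums ran from 25.8 to 2229 CPM in BA10 and from 69.4 to 2322 CPM in A0. The highest were clusters 20 and 3, so the late values of the class depend on where these 2 are placed. There 4 of the 10 were lower past 2-fold in BA10, beside 8.53% of genes. In ST-like cells the late genes were at 1882 and 2095 CPM. Within the ST-like class the 10 genes had a median log2 ratio of -0.15 and none was lower past 2-fold, beside 4.7% of genes. This class too lay in different clusters, since 21 of the 53 BA10 cells were in cluster 24, 13 in cluster 9 and 9 in cluster 11. The only cluster with at least 50 cells of both libraries was unnamed cluster 22, with 106 BA10 and 114 A0 cells, where log2 ratios ran from -2.90 for Izumo1 to 1.57 for Zpbp2, with 6 lower and 3 higher past 2-fold, beside 20.2% and 22.9% of genes.

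**Figure D4:**
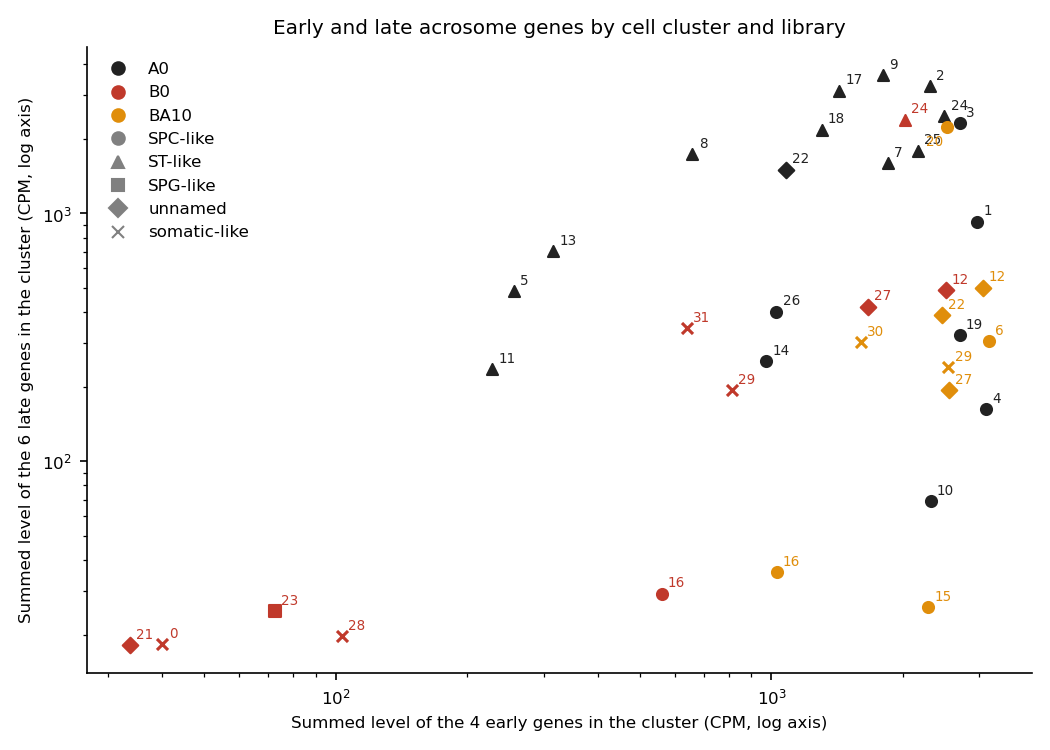
Summed level of the 4 early genes (horizontal) against that of the 6 late genes (vertical) in each cluster with at least 50 cells, both in CPM on logarithmic axes, coloured by library, shaped by class and numbered by cluster. Most BA10 clusters lie at the right with a low late level, while cluster 20 of BA10, with 2229 CPM of late genes, and cluster 24 of B0, with 2388 CPM, lie near A0 clusters of both classes, such as SPC-like cluster 3, with 2322 CPM.

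In BA10 the early genes were carried by large SPC-like clusters with little of the late set. Cluster 6, with 1394 cells, had Acrbp at 920 CPM and Zpbp2 at 1179 CPM, but Spaca1 at 108 CPM and Spam1 at 8.35 CPM. Cluster 15, with 675 cells and a median of 42281 UMIs, had Zpbp2 at 802 CPM while its late genes summed to 25.8 CPM. These 2 clusters held 69.5% of the early UMIs of BA10 and 27.3% of its late UMIs.

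The 381 BA10 cells of cluster 20 had high levels of both sets, with Izumo1 seen in 80.3% and Spam1 in 85.0% of them and each other member in at least 97.4%. This cluster gave 49.3% of the late UMIs of BA10 from 10.1% of its cells. Spaca3 was at 667 CPM there, Spaca1 at 585 CPM, Spaca7 at 512 CPM, Acrv1 at 209 CPM, Spam1 at 144 CPM and Izumo1 at 111 CPM. Against cluster 6 of the same library the late genes were higher by 2.42 to 3.96 on the log2 scale, all 6 past 2-fold, beside 22.2% of 9871 genes higher past this size, while the early genes ran from -0.67 to 0.06. By its markers cluster 20 was SPC-like (score 0.236) with ST-like next (0.165). Prm3 had a UMI in 94.8% and Tnp1 in 90.3% of its BA10 cells, against 41.1% and 32.8% in cluster 6, so the class of cluster 20 is uncertain. Of 8 synaptonemal complex genes 3 were higher and 3 lower past 2-fold in it than in cluster 6, beside 22.2% and 16.1% of genes. Sycp3, for instance, was at 90.5 CPM against 284 CPM, and Syce2 at 311 CPM against 35.6 CPM.

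The members of cluster 20 of BA10 were also set against those of cluster 24 of B0. The log2 ratio between them ran from -0.30 to 0.41 over the 10 members, with none past 2-fold, beside 4.73% of genes higher and 14.1% lower past this size. Prm1 was at 101 CPM in the BA10 cells and 92.8 CPM in the B0 cells, but with a UMI in 62.7% of the first and 15.6% of the second. Prm3 was at 929 and 1562 CPM and Tnp1 at 460 and 700 CPM. The sums of cluster 20 were near those of SPC-like cluster 3 of A0, where the early genes were at 2708 CPM and the late genes at 2322 CPM, against 2527 and 2229 CPM. Compared with cluster 9 of A0, where most late genes peaked, the late genes of cluster 20 had log2 ratios from -1.36 to -0.35 and the early genes from 0.03 to 0.87. The widest gaps were those of Izumo1, at 111 against 286 CPM and the only member past 2-fold (beside 12.7% of genes lower past this size), and of Acrv1, at 209 against 398 CPM.

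The sets were also counted cell by cell. Each cell was thinned to 5000 UMIs so that depth was equal, which left out 3235 B0 cells and none of the other libraries. This changed the cell make-up of B0, since 607 of its 2939 Leydig-like cells were kept but 95 of its 97 ST-like cells. The B0 shares below are of the 1424 cells kept. Cells with a UMI of at least 1 early and at least 1 late gene made up 79.3% (78.5 to 80.2) of A0, 80.4% of A10, 28.5% (26.2 to 30.9) of B0 and 45.2% (43.6 to 46.8) of BA10. Cells with early genes only made up 15.01%, 14.2%, 27.2% and 53.5%. In B0 41.2% of thinned cells had neither. A single UMI need not come from the cell itself. In Leydig-like B0 cells, which should lack both sets, 16.3% of 607 thinned cells had early genes only and 4.61% had both. Prm1 had a UMI in 100% of the A0 cells of each cluster with at least 20 of them, SPC-like ones included, against 1.55% of the B0 cells of cluster 0. The part of RNA from other cells in these shares was not tested. In ST-like B0 cells, 95 after thinning, all had both, and 70.5% had 8 or more of the 10 genes. That share was 42.7% in ST-like A0 cells, which lay in 11 clusters, some with low member levels such as 5, 11 and 13, whereas the ST-like B0 cells were nearly all in cluster 24.

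**Figure D5:**
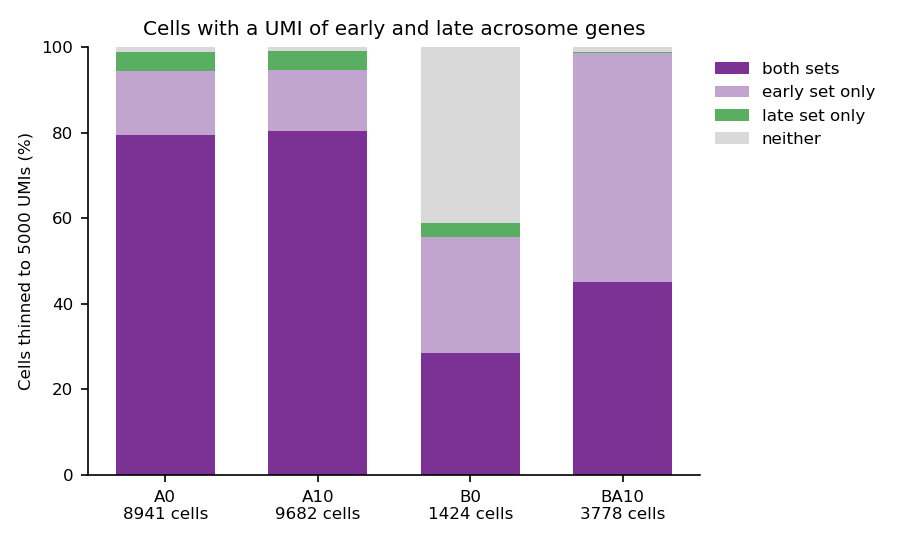
Share of cells (%, vertical axis) with a UMI of both sets, of the early set only, of the late set only or of neither, in each library after thinning to 5000 UMIs. Cells with fewer UMIs, all of them in B0, were left out. Cells with both sets make up 79.3% of A0 and 45.2% of BA10, where 53.5% had the early set only.

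Other acrosome genes, 34 chosen for their known place in acrosome formation, content, gamete fusion or exocytosis, were counted by these groups. In B0 over A0 21 were lower and 2 higher past 2-fold, with a median of -1.35, beside 23.3% of all genes lower and 39.2% higher. Among cells with at least 9013 UMIs 10 were lower and 3 higher, with a median of -0.19, beside 10.6% and 21.4% of genes. In BA10 over B0 10 were higher and 2 lower, with a median of 0.63, beside 17.8% of genes higher and 35.7% lower. The direction turned among the deeper cells, where none was higher and 7 were lower, with a median of -0.58, beside 0.995% and 16.5% of genes. In BA10 over A0 15 were lower and 1 was higher, with a median of -0.35 beside 0.38 for all genes, of which 18.2% were lower and 16.7% higher past 2-fold. In SPC-like cells 5 were lower and none higher (median -0.31), beside 8.53% and 3.87% of genes. In ST-like cells, 53 of them in BA10, none was lower and 1 higher (median -0.14), beside 4.7% and 14.2% of genes. Of the 10 genes for acrosome content and sperm surface, 3 were lower past 2-fold in SPC-like cells of BA10 than of A0 (median -0.78). In ST-like cells none was (median -0.06). Over all cells 7 were lower past 2-fold in BA10 than in A0, with a median of -1.93. They included Eqtn (-2.33), an equatorin needed at the equatorial segment, the hyaluronidase gene Hyal5 (-2.26) and the lysozyme-like gene Lyzl1 (-2.07). Dkkl1, an acrosomal glycoprotein, was at 2745 CPM in BA10 and 2171 CPM in A0, and Spesp1, a protein of the equatorial segment, at 228 and 188 CPM.

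Among 7 gamete fusion genes 1 was lower past 2-fold in SPC-like cells of BA10 than of A0 (median -0.95), beside 8.53% of genes. In ST-like cells none was (median -0.14), beside 4.7% of genes. Over all cells 5 were lower in BA10 than in A0, beside 18.2% of genes. Among them were Izumo2 (-2.86) and Izumo3 (-2.37), relatives of Izumo1, and Dcst1 (-2.05), which acts with Izumo1 in fusion. Izumo4 was at 394 CPM in BA10 and 252 CPM in A0. Of 13 genes for acrosome formation 3 were lower, a share near the 18.2% of all genes, namely Ccin (-3.75), which encodes calicin of the sperm head cytoskeleton, and the actin-related genes Actl7a (-2.43) and Actl9 (-1.22). Spink2, a protease inhibitor of the acrosome, was at 2051 and 1308 CPM and Spata16, a Golgi protein, at 422 and 292 CPM. Of the 4 exocytosis genes Rab3a passed 2-fold upward in BA10 over A0, from 0.338 to 1.79 CPM, a level seen in under 5% of cells. In A10 over A0 none of the 34 passed 2-fold.

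Lists of other germ cell genes were measured beside them. In BA10 over A0 the 5 protamine and transition protein genes were all lower past 2-fold with a median of -5.09, and 4 of 10 sperm tail genes were lower with a median of -0.78. The 8 synaptonemal complex genes, which act in meiosis, had a median of 0.30, with 1 lower. Of all genes 18.2% were lower past this size. In SPC-like cells 4 of the 5 protamine and transition protein genes and 3 of the 10 tail genes were lower, beside 8.53% of genes. Their medians there were -5.26 and -0.49. In ST-like cells, 53 of them in BA10, the medians were 0.15 and -0.14 with none lower, beside 4.7% of genes. In BA10 over B0 4 of the 5 protamine and transition protein genes and 6 of the 10 sperm tail genes were higher past 2-fold, with medians of 3.15 and 1.25, beside 17.8% of all genes. Prm1 was at 360 CPM in BA10 and 35.0 CPM in B0. In the 1394 and 675 BA10 cells of clusters 6 and 15 it was at 39.1 and 25.6 CPM. The library value of Prm1 thus does not describe the large clusters of BA10. Among cells with at least 9013 UMIs 3 protamine and transition protein genes were higher and 1 lower, with a median of 1.95, while the sperm tail genes turned to a median of -0.28, with none higher and 2 lower, beside 0.995% of all genes higher and 16.5% lower. In B0 over A0 the medians were -8.42 and -2.13 over all cells, with 5 and 10 genes lower past 2-fold beside 23.3% of all genes. Among the deeper cells they were -7.22 and -0.59, with 5 and 3 genes lower beside 10.6%. The synaptonemal complex genes had a median of 0.38 in BA10 over B0, with 1 higher beside 17.8% of genes. In B0 over A0 it was -0.11, with 2 lower beside 23.3%. Among the deeper cells the medians were -0.41, with 1 lower (16.5%), and 0.72, with 2 higher (21.4%) and 1 lower (10.6%). In SPC-like cells, those of B0 almost all in cluster 16, 7 of the 8 were lower in BA10 over B0 (31.4%), with a median of -2.30.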

How the data were processed

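Droplet single-cell RNA-seq (3′ UMI counting) of 4 testis libraries was analysed. Per the submitters' processing notes, reads were processed with Cell Ranger 2.2.0 against mm10. The authors deposited 1 table of values on the natural log scale, ln(1 + 10000 × share of a cell's UMIs), from which UMIs were recovered. The members and gene lists were chosen with earlier results of these data known, and the division into an early and a late set was made after their values were seen.

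UMIs were summed per library, class or cluster and scaled to 1000000, and log2 ratios had 1 CPM added. Fold intervals were exact conditional binomial. The background was the genes that 5% or more of the cells on either side contained. Cells were clustered without the 10 genes (scanpy 1.11.5, leidenalg 0.10.2, 2000 variable genes, 30 components, 15 neighbours, resolution 1), named from fixed markers where these were not contradicted by leading genes, and ordered by diffusion pseudotime. The closest genes were those with the highest Pearson correlation over clusters. Scrublet marked as doublets 8.06% (A0), 8.66% (A10), 0.0859% (B0) and 1.27% (BA10) of cells, and all cells were kept because the caller marked too few in B0 to be relied on. Calculations used numpy 2.4.6 and scipy 1.17.1 and were tested on simulated data. With 1 library a group no test across samples was made.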

Additional observations from a re-analysis of the deposited data

Results flagged for a closer look

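For 6 of the genes the log2 ratio of AOS to no AOS had opposite signs without and with busulfan, over all cells. Without busulfan (A10 over A0) and with it (BA10 over B0) the values were -0.12 and 0.28 for Acrv1, -0.20 and 0.65 for Spaca1, and -0.13 and 0.66 for Spaca3. They were -0.043 and 0.55 for Spaca7, -0.056 and 1.79 for Zpbp, and -0.19 and 0.57 for Izumo1. With 1 library in each group the difference between the ratios was not tested. No share of all genes with opposite signs is given, and the medians of all genes were -0.03 without busulfan and -0.26 with it. Among cells with at least 9013 UMIs the ratio with busulfan was below 0 for the 5 late genes named here and 0.28 for Zpbp.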

How the results depend on the processing

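No paired analysis was possible because each group had 1 library. Medians over the 10 genes are log2 ratios. For cells with at least 9013 UMIs the median was -0.74 in B0 over A0, with 1 gene lower past 2-fold, and -0.90 in BA10 over B0, with 0 higher and 3 lower. There B0 over A0 turned to 0.11 for Acr, 0.042 for Acrbp and 0.20 for Zpbp2, and BA10 over B0 to -1.25 for Acrv1, -0.90 for Spaca1, -0.91 for Spaca3, -1.01 for Spaca7, -1.40 for Spam1 and -0.92 for Izumo1. With 10 CPM added the median was -1.94 in B0 over A0 and -1.68 in BA10 over A0. As a mean over cells it was -3.32 in B0 over A0, 2.03 in BA10 over B0 with 10 genes higher (28.9% of all genes), and -1.45 in BA10 over A0, and Spaca7 turned to 0.0126 in A10 over A0. Scaling without the 200 most abundant genes gave -0.0271 in A10 over A0, -2.63 in B0 over A0, 0.92 in BA10 over B0 and -1.86 in BA10 over A0. In SPC-like cells the medians were -3.42 in B0 over A0, 2.41 in BA10 over B0 with 10 higher, and -0.90 in BA10 over A0, and Zpbp2 turned to -0.0061 in the A10 to A0 ratio, while in BA10 over A0 Zpbp turned to -0.0014 and Zpbp2 to -0.24. In ST-like cells, of which B0 had 97 and BA10 53, the medians were -0.0263 in A10 over A0, 0.36 in B0 over A0 with 0 lower, -0.40 in BA10 over B0 with 0 higher and 2 lower, and -0.15 in BA10 over A0 with 0 lower. Single genes turned there in A10 over A0 (Spaca7, 0.0073) and, for Zpbp2, in BA10 over A0 (-0.32). In B0 over A0 they turned to 0.57 for Acr, 0.18 for Acrv1, 0.53 for Acrbp, 0.17 for Spaca1, 0.20 for Spaca3, 0.28 for Spaca7, 0.61 for Spam1, 0.44 for Zpbp and 0.71 for Zpbp2. In BA10 over B0 they turned to -0.39 for Acr, -0.35 for Acrv1, -0.37 for Acrbp, -0.46 for Spaca1, -0.20 for Spaca3, -0.41 for Spaca7, -1.004 for Spam1, -0.41 for Zpbp and -1.03 for Zpbp2. Without cluster 24, a setting chosen after seeing the data, the median was -3.22 in B0 over A0 and 1.49 in BA10 over B0 with 10 higher (22.8% of all genes), a move that its construction gives, since the cluster held 49.0% of the late UMIs of B0 and 2.36% of those of BA10. Thinning, which also left out the 3235 B0 cells under 5000 UMIs, took the median share of cells with a UMI from 78.9% to 60.5% in A0, 78.3% to 59.1% in A10, 9.47% to 20.5% in B0 and 47.8% to 31.0% in BA10. The gap between the sets' first bins at 50% of peak was 3.5 bins, and 5.5 by the first principal component. The cause of these changes was not tested. Of the values for single genes, 143 stayed within counting error, 178 moved further in the same direction or toward 0, and 33 turned, while of the summary values 69 stayed, 32 moved and 3 turned.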
